A study of Mus musculus with 8 samples.

Results

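The 10 parenchymal astrocyte genes *Aqp4*, *Gja1*, *Gjb6*, *Slc1a2*, *Slc1a3*, *Aldh1l1*, *Aldoc*, *Glul*, *S100b* and *Agt* were taken by symbol from the 54307 genes of a bulk RNA-sequencing count table, and all 10 passed the filter on low counts. The table held 8 mice at 8 weeks of age on the 129-Elite strain background. The 4 *Lrig1* KO mice (2 female, 2 male) were homozygous for CreERT2 knocked into exon 1 of *Lrig1*, which makes the allele a constitutive knockout, and the 4 WT mice (3 female, 1 male) carried the wild-type allele on both chromosomes. RNA came from the periventricular area, which contains the ventricular-subventricular zone (V-SVZ), of 1 hemisphere per mouse, and the study compared the genotypes to find signalling disrupted by loss of LRIG1. KO mice therefore lack *Lrig1* in every cell type and also carry CreERT2, which the WT mice do not, and no cell type was isolated.

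Astrocytes take up the glutamate and potassium that neurons release, convert glutamate to glutamine, share ions and metabolites through gap junctions, and contact vessels with endfeet rich in water channels. In the V-SVZ the neural stem cells are themselves astrocyte-like, and ependymal cells share several of these transcripts, among them *S100b*, *Gja1*, *Slc1a3* and *Aldoc*. *Agt* and *Gjb6* are known to differ strongly between astrocytes of different brain regions. In bulk tissue, fewer astrocytes and less RNA per astrocyte cannot be told apart.

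The members carried deep counts. Estimated counts per gene lay between 290 for *Agt* in WT replicate 2 and 206319 for *Slc1a2* in KO replicate 3, in libraries of 47887437 to 74482334 counts. *Lrig1* itself was at 13.5 to 45.6 CPM (gene counts scaled to a common library size, after TMM normalization) in WT mice and 1.17 to 4.15 CPM in KO mice, so every KO library lay below every WT library, in the direction of its label (log2 fold change -3.80, adjusted p 0.286 by edgeR). The dissections differed in what else they held. The summed CPM of 6 cortical excitatory neuron markers was 379, 1849, 93.4 and 278 in WT replicates 1 to 4 and 492, 139, 907 and 97.3 in KO replicates 1 to 4, highest in WT replicate 2 and KO replicate 3. The summed CPM of 7 septal and hypothalamic markers was 31.7, 20.6, 27.9 and 95.3 in WT animals and 22.5, 403, 35.1 and 67.3 in KO animals, highest in KO replicate 2 and WT replicate 4. These mice are named below where a member follows them.

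Across the 10 genes, KO and WT did not differ past the threshold. With edgeR's quasi-likelihood test and Benjamini-Hochberg adjustment over 17669 genes, 0 of the 10 had an adjusted p under 0.1 (smallest adjusted p 0.9998), beside 0.00566% of all genes tested, which was 1 gene, *Gm43079*, named here because it is the one call. At an unadjusted p under 0.05 there was 1 member, *Glul*, of 10, beside 1.88% of all genes. *Glul* was also the 1 member whose groups did not overlap, with the highest KO mouse below the lowest WT mouse, a pattern held by 0.877% of all genes. With DESeq2, 0 members had an adjusted p under 0.1, beside 0.0619% of the genes it gave an adjusted p, and 1 member, *Glul*, had an unadjusted p under 0.05, beside 1.66% of the genes it tested. The study's own table of changed genes, made with DESeq2 from these libraries, holds 0 of the 10. That table lists more genes than the 12 called by DESeq2 here, and why they differ was not tested. Both are a small part of all genes, so 0 of the 10 says little about the members. The edgeR test did not call *Lrig1* itself, at a log2 fold change of -3.80 and an adjusted p of 0.286. Yet every KO mouse lay below every WT mouse for that gene. A member that was not called may therefore still differ between the genotypes. In the study's own test *Lrig1* was the most significant of the lowered genes. The fold changes were above 0 in 4 members and below 0 in 6, with a median log2 fold change of -0.05 (KO minus WT), where the median over all genes tested was -0.000942. The sign of the members' median was not stable, at 0.0415 in females alone, 0.0122 with WT replicate 4 left out and 0.0155 when KO replicate 1 was dropped.

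Of the 10 genes, 9 had a promoter window in the RefSeq table of mouse GRCm38.p6 (all but *Aqp4*), 300 bases from 250 before to 50 after the annotated start, and *Aldoc* had 2 windows. The windows of *Glul*, *Agt* and *Aldoc* are printed because the results turn on these genes: *Glul* is the member with separated groups, *Agt* varied most between mice, and the 2 *Aldoc* starts belong to 2 transcripts that were both measured. Capitals mark matches on either strand to TATAAA (the TATA box), GGGCGG (the GC box) and CCAAT (the CCAAT box), and none of these matches overlap in the windows shown.
Glul, chr1:153899679-153899978, plus strand: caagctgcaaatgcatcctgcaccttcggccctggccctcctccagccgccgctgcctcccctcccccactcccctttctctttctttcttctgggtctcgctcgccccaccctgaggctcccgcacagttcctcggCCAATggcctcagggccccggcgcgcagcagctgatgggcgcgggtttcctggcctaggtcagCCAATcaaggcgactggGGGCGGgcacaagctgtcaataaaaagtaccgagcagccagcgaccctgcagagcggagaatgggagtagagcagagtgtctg
Agt, chr8:124569657-124569956, minus strand: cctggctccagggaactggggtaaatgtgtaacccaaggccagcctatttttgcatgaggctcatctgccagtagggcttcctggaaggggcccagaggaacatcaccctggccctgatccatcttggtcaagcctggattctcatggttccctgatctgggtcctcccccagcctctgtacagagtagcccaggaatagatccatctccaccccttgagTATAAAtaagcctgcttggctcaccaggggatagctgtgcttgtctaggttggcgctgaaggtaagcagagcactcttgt
Aldoc, upstream start, chr11:78322823-78323122, plus strand: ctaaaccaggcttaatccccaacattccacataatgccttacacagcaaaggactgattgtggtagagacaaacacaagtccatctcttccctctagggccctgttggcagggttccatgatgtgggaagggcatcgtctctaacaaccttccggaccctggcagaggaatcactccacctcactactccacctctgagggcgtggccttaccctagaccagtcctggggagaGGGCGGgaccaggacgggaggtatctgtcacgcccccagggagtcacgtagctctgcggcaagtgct
Aldoc, downstream start, chr11:78323948-78324247, plus strand: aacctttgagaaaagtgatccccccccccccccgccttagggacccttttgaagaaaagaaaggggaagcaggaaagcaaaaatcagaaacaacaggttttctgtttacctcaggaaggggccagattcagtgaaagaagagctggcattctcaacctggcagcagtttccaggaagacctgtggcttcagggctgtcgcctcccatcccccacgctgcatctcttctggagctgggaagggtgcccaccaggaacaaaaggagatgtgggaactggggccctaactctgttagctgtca

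The *Glul* window held 2 CCAAT boxes and 1 GC box, and the *Agt* window held 1 TATA box shortly before the start. The upstream *Aldoc* window held 1 GC box, and the downstream one held none of the 3 motifs. Over all 32851 windows of this length in the table, 13.6% held TATAAA, 35.7% GGGCGG and 37.4% CCAAT. Of the 10 windows of the members, 2 held TATAAA (*Agt* and *Slc1a3*), 4 GGGCGG and 4 CCAAT. The windows not printed lay at chr10:56377050-56377349 (*Gja1*, plus strand), chr14:57133562-57133861 (*Gjb6*, minus strand), chr2:102706188-102706487 (*Slc1a2*, plus strand), chr15:8710758-8711057 (*Slc1a3*, minus strand), chr6:90550543-90550842 (*Aldh1l1*, plus strand) and chr10:76253586-76253885 (*S100b*, plus strand). A match is a description of the letters and no evidence of binding.

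The transcript estimates give how the TPM of each gene was divided among its annotated transcripts, and no start site was measured. *Aldoc-202*, which begins in the downstream window, held 79.8% (range 77.5 to 80.7%) of the *Aldoc* TPM over the 8 mice, and *Aldoc-201*, which begins in the upstream window, held 19.4% (range 18.8 to 21.3%). *Glul-201*, which begins in the *Glul* window, held 99.6% (range 99.5 to 99.7%) and *Agt-201* was the one *Agt* transcript. *Gja1-201* and *Slc1a3-201* held 99.6% and 99.3% of their genes. *S100b* had 1 transcript. For *Slc1a2*, encoding the glutamate transporter GLT1, the window in the table lies at an internal start whose 3 transcripts held 1.14% of the TPM, while *Slc1a2-202* held 91.9% (range 89.9 to 93.9%). *Aqp4-201* held 89.4% (range 88.1 to 92.6%) and *Aqp4-210* 10.05% (range 7.45 to 10.99%) of the *Aqp4* transcripts that could be matched, which carried 92.8% of its counts.

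2 members had transcript shares that varied widely between mice. *Gjb6-201*, a protein-coding transcript, held 63.4, 83.7, 58.8 and 63.3% of the *Gjb6* TPM in WT replicates 1 to 4 and 69.02, 57.6, 71.2 and 61.4% in KO replicates 1 to 4. *Gjb6-203*, annotated as a processed transcript, held 35.4, 9.90, 39.1 and 32.02% and 28.9, 38.1, 23.3 and 35.4%. Its share was lowest in WT replicate 2 and KO replicate 3, the 2 mice with the most cortical marker RNA. *Aldh1l1-201* held 83.4% (range 73.7 to 87.8%) and *Aldh1l1-207*, annotated for nonsense-mediated decay, 6.22% (range 4.56 to 7.82%). The processed transcript *Aldh1l1-202*, singled out after its values were seen, held 19.1% in WT replicate 2 and 9.14% in KO replicate 3 and 0 to 5.36% in the other 6 mice. The part of cortical tissue in these shares was not tested. Of 39966 transcripts tested across the transcriptome in the same way, 0 were called (0%) and 2.04% had an unadjusted p under 0.05. Of the 27 member transcripts tested, 0 were called and 1 had an unadjusted p under 0.05, *Glul-201* (log2 fold change -0.21, unadjusted p 0.0297 by edgeR).

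Levels of different genes were compared per length, as TPM summed over the transcripts of a gene. The order by median was *Glul* (789.7 TPM, range 672 to 1063), *Aldoc* (544), *Slc1a2* (338), *Slc1a3* (212), *S100b* (123), *Gja1* (115), *Aqp4* (31.5), *Gjb6* (30.4), *Aldh1l1* (27.6) and *Agt* (17.7). The first 4 steps were each in the same order in 8 of 8 mice, although the ranges of *Glul* and *Aldoc* overlapped. *S100b* was above *Gja1* in 5 of 8 mice, so these neighbours did not differ beyond their spread. *Gja1* was above *Aqp4* in 8 of 8 mice. Among *Aqp4*, *Gjb6*, *Aldh1l1* and *Agt* each step held in 5 of 8 mice and the ranges overlapped. The enzyme and transporter genes of glutamate handling and glycolysis thus filled the first 4 places, and both connexins, the water channel and *Agt* lay lower.

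**Figure D1:**
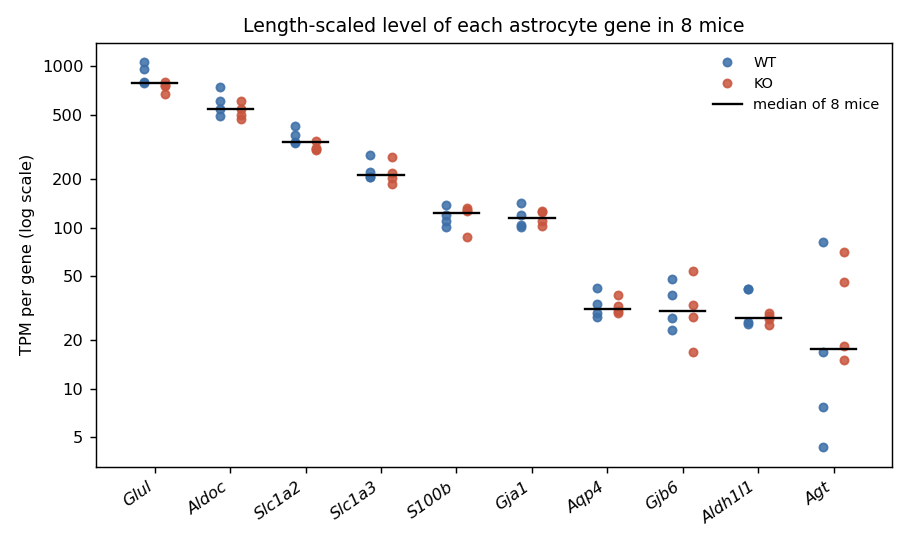
TPM per gene on a log axis for 4 WT mice (blue) and 4 KO mice (red), with the median of 8 mice as a line, for the 10 astrocyte genes in order of median. *Glul* leads at 789.7 TPM and *Agt*, last at 17.7, spans 4.33 to 81.3 TPM.

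*Aqp4*, the water channel of astrocyte endfeet, was the steadiest member in CPM. It was at 125, 114, 114 and 128 CPM in WT replicates 1 to 4 and at 114, 119, 116 and 125 CPM in KO replicates 1 to 4. The groups overlapped almost fully, and the highest mouse was 1.12 times the lowest. Only 3.61% of the genes tested had a smaller SD of log2 CPM over the 8 mice. The means were 120.3 ± 7.13 CPM in WT and 119 ± 4.90 CPM in KO (SD, n = 4 each; log2 fold change -0.02, standard error 0.0656, 95% interval -0.17 to 0.13). In this fit the interval bounds a difference in either direction to a ratio between 0.890 and 1.09. From transcript sums with length offsets the log2 fold change was 0.0250, with a wider standard error of 0.123. In TPM, which carries no TMM scaling, *Aqp4* also ranged more widely, from 28.1 to 42.2.

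Other genes known from the perivascular endfoot, where they anchor or accompany AQP4, gave small fold changes. Of 9 tested, 0 were called and 0 had an unadjusted p under 0.05, with 1 above 0 and 8 below and a median log2 fold change of -0.06. The largest log2 fold changes were those of *Clcn2*, a chloride channel (-0.19), *Kcnj10*, the potassium channel Kir4.1 (-0.09), and *Hepacam*, an adhesion protein (-0.07), all short of an unadjusted p of 0.05 in edgeR.

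*Gja1* and *Gjb6* encode the connexins that couple astrocytes into a network, and they differed in spread. *Gja1* (Cx43) was at 223, 228, 259 and 270.4 CPM in WT replicates 1 to 4 and at 250.3, 274, 227 and 263 CPM in KO replicates 1 to 4. *Gjb6* (Cx30) was at 21.5, 41.6, 27.4 and 39.1 CPM in WT animals and at 19.2, 46.2, 27.9 and 28.5 CPM in KO animals. Both genes overlapped between the genotypes, but *Gjb6* ranged 2.40-fold and *Gja1* 1.23-fold. *Gjb6* was high in WT replicates 2 and 4 and KO replicate 2, and these were 3 of the 4 mice with the lowest striatal marker sum. That sum, over 6 genes, was 4769, 1785, 5464 and 3480.2 CPM in WT animals and 4391, 2713, 3038 and 4252 CPM in KO animals, and its part in *Gjb6* was not tested.

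For *Gja1* the log2 fold change was 0.05 (standard error 0.0937, 95% interval -0.16 to 0.26). For *Gjb6* it was -0.09 (standard error 0.288, 95% interval -0.74 to 0.56), and its sign turned under several settings, to 0.35 in females alone and 0.05 without WT replicate 2. Across the 8 mice *Gjb6* and the striatal sum had a Pearson r of -0.72 and a Spearman rho of -0.81 (-0.80 by Pearson without the 2 mice farthest on the striatal axis), a description of 8 libraries that share one normalization. Of 8 other connexins tested, 0 were called and 0 had an unadjusted p under 0.05, with 2 above 0 and 6 below. *Gja5* and *Gja4*, the connexins of vessels, and *Gjd2*, that of neurons, had the largest log2 fold changes (0.21, -0.21 and 0.20). The highest of the 8 per length was *Gjc3*, an oligodendrocyte connexin, at 19.9 TPM, below both astrocyte connexins in median.

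**Figure D2:**
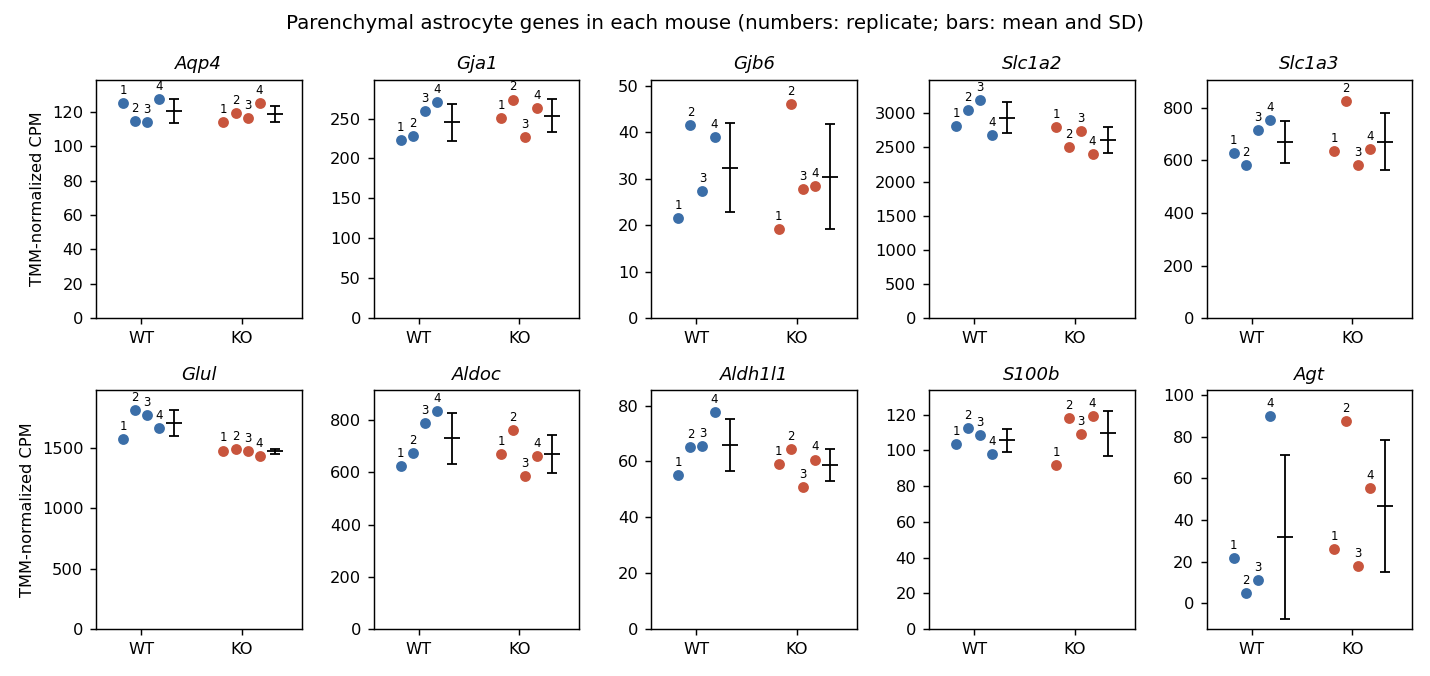
TMM-normalized CPM (linear axes) of each astrocyte gene in the 4 WT (blue) and 4 KO (red) mice, numbered by replicate, with the mean and SD of each group as a bar. The *Glul* groups do not overlap, those of the other 9 genes do, and *Agt* ranges from 4.75 to 89.7 CPM within the WT mice alone.

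The glutamate transporters clear transmitter from synapses, *Slc1a2* (GLT1) as the main carrier of the mature forebrain and *Slc1a3* (GLAST) also in radial glia and neural stem cells. *Slc1a2* was at 2810.2, 3045, 3193 and 2688 CPM in WT replicates 1 to 4 and at 2797, 2502, 2735 and 2407 CPM in KO replicates 1 to 4. 3 of 4 WT mice were above every KO mouse, and WT replicate 4 lay within the KO range. The means were 2934 ± 228 CPM in WT and 2610.1 ± 186 CPM in KO (SD, n = 4 each; log2 fold change -0.17, standard error 0.107, 95% interval -0.41 to 0.08; unadjusted p 0.151 and adjusted p 0.9998 by edgeR), which did not pass the threshold. The value stayed below 0 in all 20 alternative settings, between -0.23 and -0.13.

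*Slc1a3* was at 628, 581, 715 and 753 CPM in WT animals and at 635, 826, 581 and 644 CPM in KO animals, with the highest value in KO replicate 2 and the lowest in KO replicate 3 and WT replicate 2. The groups overlapped and the log2 fold change was 0.00444 (standard error 0.134, 95% interval -0.30 to 0.31), with no stable sign across settings. The other 4 transporters of the family tested, *Slc1a1*, *Slc1a4*, *Slc1a5* and *Slc1a6*, had 3 above 0 and 1 below, 0 called and 0 at an unadjusted p under 0.05. The largest were *Slc1a6*, the Purkinje cell transporter (0.42), *Slc1a5*, a neutral amino acid carrier (0.07), and *Slc1a1*, the neuronal glutamate transporter (0.05). Per length, *Slc1a1* had a median of 43.7 TPM, below *Slc1a3* and *Slc1a2*.

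*Glul* encodes glutamine synthetase, which turns the glutamate taken up by astrocytes into glutamine. It was at 1577, 1814, 1772 and 1668 CPM in WT replicates 1 to 4 and at 1481, 1491, 1479.9 and 1439 CPM in KO replicates 1 to 4. All 4 KO mice lay below the lowest WT mouse, and the KO mice lay within a narrow band. The means were 1708 ± 107 CPM in WT and 1473 ± 23.002 CPM in KO (SD, n = 4 each), a ratio of 0.862 (95% interval 0.751 to 0.990). The log2 fold change was -0.21 with a standard error of 0.0877, and by edgeR the unadjusted p was 0.0383 and the adjusted p 0.9998, so it did not pass over all genes. It stayed below 0 in all 20 alternative settings, between -0.26 and -0.18, with unadjusted p between 0.00265 and 0.158 and no adjusted p under 0.671. The unadjusted p was above 0.05 when any 1 of WT replicates 2, 3 and 4 or KO replicates 1, 3 and 4 was left out, between 0.0516 and 0.0976. In TPM, which carries no TMM scaling, the groups overlapped, with KO replicate 3 at 802 TPM above WT replicates 1 and 3 at 795 and 785 TPM. With length offsets and TMM scaling together the log2 fold change of *Glul* was -0.21 (edgeR, unadjusted p 0.0403, adjusted p 0.999). Without WT replicate 2 and KO replicate 3, the mice with the most cortical marker RNA, the log2 fold change was -0.18. Without WT replicate 4 and KO replicate 2, those with the most septal and hypothalamic marker RNA, it was -0.23.

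The other genes of the glutamate and glutamine cycle had groups that overlapped. Of 8 tested, 0 were called, 0 had an unadjusted p under 0.05 and 0 had groups that did not overlap, with 4 above 0 and 4 below and a median log2 fold change of -0.00435. Groups without overlap were held by 0.877% of all genes with KO lower and 0.657% with KO higher. A count of 0 among 8 genes therefore does not set *Glul* apart from them. *Slc38a3*, the glutamine exporter of astrocytes, had a log2 fold change of -0.13, and *Gls2*, a glutaminase, one of 0.11.

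*Aldoc* encodes the aldolase of glycolysis that marks astrocytes and *Aldh1l1* a folate enzyme used widely as an astrocyte marker. *Aldoc* was at 624, 675, 789.8 and 834 CPM in WT replicates 1 to 4 and at 672, 762, 584 and 663 CPM in KO replicates 1 to 4. *Aldh1l1* was at 55.2, 65.2, 65.6 and 77.8 CPM in WT animals and at 58.98, 64.5, 50.8 and 60.7 CPM in KO animals. In both genes WT replicate 4 was highest and KO replicate 3 lowest. The groups overlapped, although for *Aldh1l1* 3 of 4 WT mice were above every KO mouse. The log2 fold changes were -0.12 (standard error 0.124, 95% interval -0.41 to 0.16) and -0.17 (standard error 0.114, 95% interval -0.43 to 0.09), neither past the threshold. Both stayed below 0 in all 20 alternative settings. Of 5 tested relatives of both enzymes 0 were called and 0 had an unadjusted p under 0.05, with 1 above 0 and 4 below, the largest being *Aldh1l2*, the mitochondrial counterpart (-0.15), *Aldh1a2* (-0.14), and *Aldoa*, the widely expressed aldolase (-0.05). *Aldoa* had a median of 1730.4 TPM, above *Aldoc* per length.

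*S100b*, a calcium-binding protein of astrocytes, ependymal cells and some oligodendrocyte-lineage cells, was at 104, 113, 108 and 97.8 CPM in WT replicates 1 to 4 and at 91.7, 118, 109 and 119 CPM in KO replicates 1 to 4. KO replicate 1 was the lowest mouse, and the other 3 KO mice lay at or above the WT median. The log2 fold change was 0.05 (standard error 0.0933, 95% interval -0.16 to 0.26). It was 0.20 in females alone, with an unadjusted p of 0.0488 and an adjusted p of 0.844 by edgeR. Of 9 other S100 genes, 7 were tested, 0 were called and 0 had an unadjusted p under 0.05, with 2 above 0 and 5 below, the largest being *S100a11* (-0.24), *S100a6* (-0.15) and *S100a4* (0.09). *S100a8* and *S100a9*, markers of neutrophils, were not tested for low counts.

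**Figure D3:**
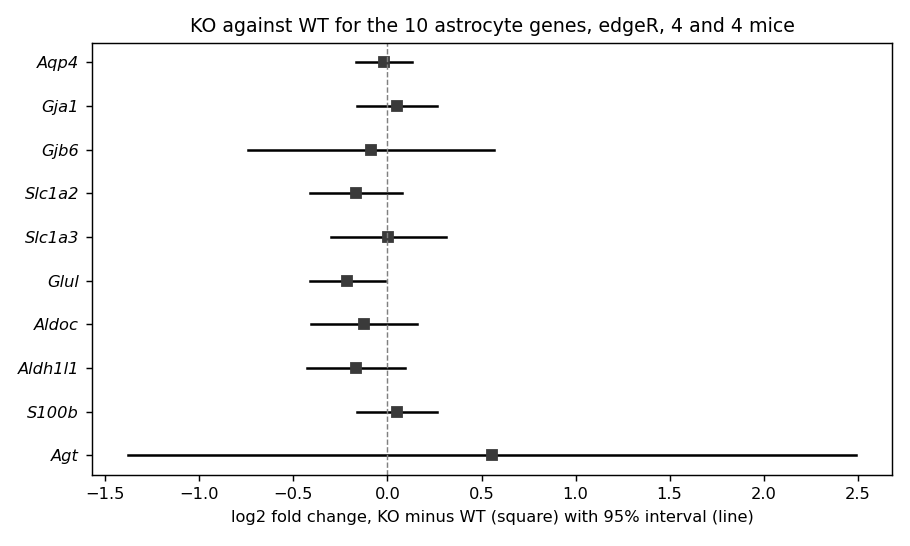
Log2 fold change of each astrocyte gene, KO minus WT (squares), with the 95% interval from edgeR (lines), for 4 WT and 4 KO mice. The interval of *Glul* lies from -0.41 to -0.01, those of the other 9 genes include 0, and that of *Agt* runs from -1.38 to 2.49.

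*Agt* encodes angiotensinogen, the precursor of angiotensin, which astrocytes produce in the brain, most of all outside the telencephalon. It was the most variable member. *Agt* was at 21.5, 4.75, 11.1 and 89.7 CPM in WT replicates 1 to 4 and at 26.1, 87.5, 17.7 and 55.3 CPM in KO replicates 1 to 4. WT replicate 4, KO replicate 2 and KO replicate 4 were high, WT replicate 2 was lowest, and the range over the 8 mice was 18.9-fold. 98.5% of the genes tested had a smaller SD of log2 CPM. The log2 fold change of 0.56 had a standard error of 0.852 (95% interval -1.38 to 2.49), so the data bound the ratio only to between 0.384 and 5.62. Single mice decided the value, which was 1.91 without WT replicate 4 (edgeR, unadjusted p 0.0247, adjusted p 0.99996) and 0.06 without KO replicate 2, the extremes over all 20 alternative settings. The 3 high mice were female, and the other 2 females, WT replicates 1 and 3, were at 21.5 and 11.1 CPM, within the range of the 3 males. With sex as a covariate the log2 fold change was 1.26 (edgeR, unadjusted p 0.0962, adjusted p 0.786).

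Markers of other brain regions moved with *Agt*. The 3 mice with the highest *Agt* were the 3 with the highest septal and hypothalamic sum. Over 8 mice the Pearson r of log2 values was 0.81 and the Spearman rho 0.81, and r was 0.77 without KO replicate 2 and WT replicate 4. With the sum of 4 genes known from non-telencephalic astrocytes (*Slc6a9*, *Itih3*, *Irx2* and *Irx5*), which was 104, 65.2, 84.7 and 219 CPM in WT animals and 93.2, 223, 83.7 and 113 CPM in KO animals, r was 0.91 and rho 0.93 (0.94 by Pearson without the same 2 mice). The defining neuropeptide genes of the hypothalamus were in the same libraries, *Avp* at 110.0 and *Oxt* at 89.1 CPM in KO replicate 2, at 12.9 and 22.5 CPM in WT replicate 4 and at 14.4 and 9.46 CPM in KO replicate 4, and each at most 1.02 CPM in the other 5 mice. None of the 7 markers was at 0 in every mouse, and 6 passed the filter. Among these 6, all had a log2 fold change above 0 (median 1.18), 0 were called and 0 had an unadjusted p under 0.05, the largest being *Avp* (3.15), *Oxt* (2.11) and *Zic1* (1.19). The part of regional tissue in the *Agt* values was not tested. Without WT replicate 4 and KO replicate 2 together the *Agt* log2 fold change was 1.41.

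**Figure D4:**
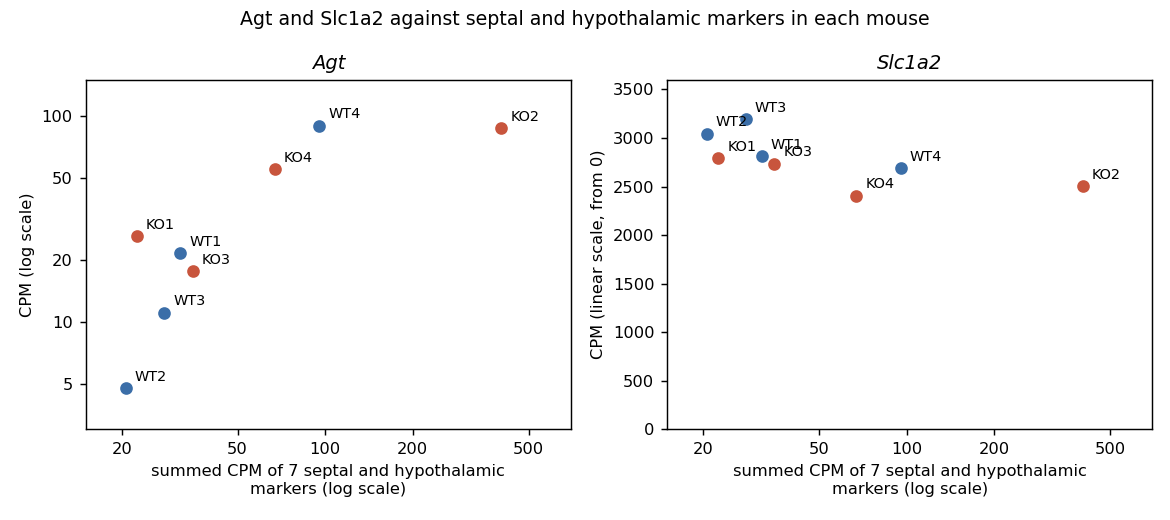
CPM of *Agt* (left, log axis) and *Slc1a2* (right, linear axis from 0) against the summed CPM of 7 septal and hypothalamic markers (log axis) in 4 WT (blue) and 4 KO (red) mice, labelled by group and replicate. KO2, WT4 and KO4 have the highest marker sums, the highest *Agt* and the lowest *Slc1a2*.

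Of 11 other genes of the angiotensin system, 9 were tested, 0 were called and 0 had an unadjusted p under 0.05, with 6 above 0 and 3 below. *Ren1*, encoding renin, and *Agtr1b* were not tested for low counts. *Agtr2*, an angiotensin receptor, had a log2 fold change of 1.09 (unadjusted p 0.0522 by edgeR), and *Anpep*, an aminopeptidase, one of -0.32. *Agtr2* was itself scarce, at 0.107 to 0.530 CPM in WT and 0.437 to 0.946 CPM in KO mice. *Mas1*, a receptor of angiotensin peptides, ranged from 3.01 to 11.8 CPM, highest in WT replicate 2 and KO replicate 3, and is also in the table of changed genes the study made from these libraries.

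The members did not vary as 1 block across the mice. Of the 45 pairs of members, 31 had a Pearson r of log2 CPM above 0 over the 8 mice, with a median of 0.25, and 6 had an r above 0.7. These are descriptions of 8 libraries that share dissection and normalization, and no test was made. *Gja1*, *Slc1a3*, *Aldoc* and *Aldh1l1* varied together, with r between 0.63 and 0.92 among their 6 pairs. The closest pair was *Aldh1l1* and *Aldoc* (Spearman rho 0.95, and r 0.88 to 0.95 when each mouse was left out in turn). *Agt* had an r of 0.72 with *Gja1* and 0.69 with *Slc1a3*, but 0.38 with *Aldoc* and 0.30 with *Aldh1l1*. *Slc1a2* and *Glul*, the transporter and the enzyme that follows it, formed a second pair (r 0.81, rho 0.71, and 0.73 to 0.87 leaving out each mouse).

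*Slc1a2* ran against *Agt* (r -0.82, rho -0.81, and -0.88 to -0.77 leaving out each mouse). The 3 mice with the most *Agt*, WT replicate 4, KO replicate 2 and KO replicate 4, were the 3 with the least *Slc1a2*. With the septal and hypothalamic sum *Slc1a2* had an r of -0.69 (rho -0.81, and -0.82 by Pearson without KO replicate 2 and WT replicate 4). Within genotypes, as deviations from each group's mean, r for *Slc1a2* and *Agt* was -0.81, and for *Slc1a2* and *Glul* 0.62. *S100b* had an r between -0.30 and 0.54 with the other members. Of all pairs, 41 of 45 kept their sign within genotypes and 27 kept it whichever mouse was left out.

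**Figure D5:**
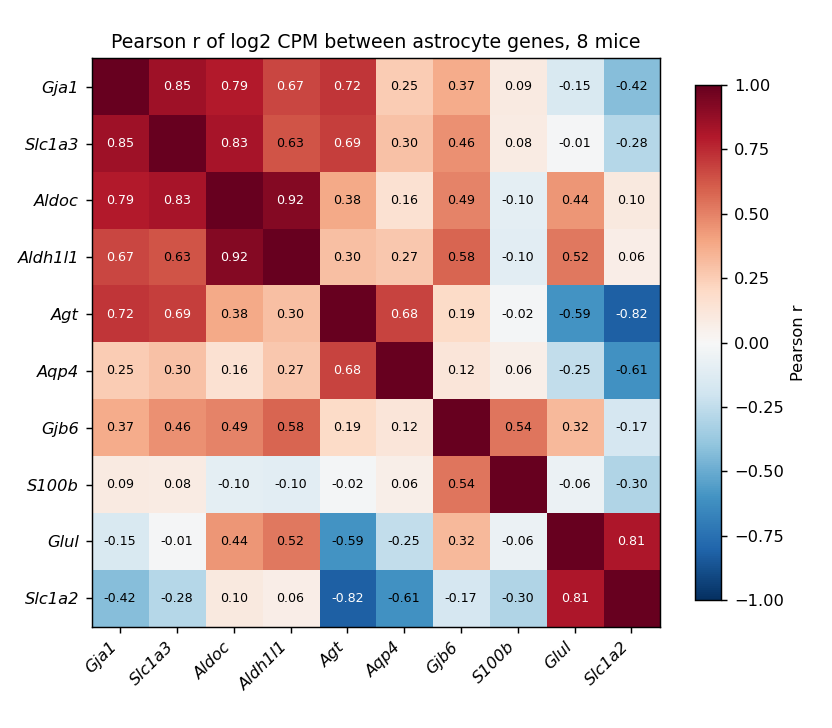
Pearson r of log2 CPM between each pair of the 10 astrocyte genes over 8 mice, from -1 (blue) to 1 (red). *Gja1*, *Slc1a3*, *Aldoc* and *Aldh1l1* form a block of high r, *Slc1a2* pairs with *Glul* at 0.81, and *Slc1a2* stands at -0.82 to *Agt*.

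The first block also followed markers of the ependymal cells, which line the ventricle and carry motile cilia. The summed CPM of 7 ependymal markers was 37.9, 38.8, 56.5 and 56.4 in WT animals and 45.8, 71.1, 31.2 and 49.7 in KO animals, highest in KO replicate 2 and lowest in KO replicate 3. Over 8 mice its r was 0.94 with *Slc1a3* (rho 0.95, and 0.89 by Pearson without KO replicates 2 and 3) and 0.92 with *Gja1* (rho 0.90, and 0.95 without the same mice). The other genes of the block, *Aldoc* and *Aldh1l1*, had an r of 0.85 and 0.69 with this sum (0.85 and 0.65 without the same mice). With *Agt*, outside the block, the r was 0.60, with *Slc1a2* -0.26 and with *Glul* 0.03. *S100b*, named above as shared with ependymal cells, had an r of 0.15 (-0.09 without the same mice). *Gja1* ran against the sum of 5 neuron markers (r -0.80, rho -0.74), which was 4258, 6227, 3664 and 3513 CPM in WT animals and 3967, 3714, 5105 and 3701 CPM in KO animals. *Agt* and *Slc1a3* did so as well (r -0.77 and -0.75, rho -0.62 and -0.83). The r of the other members lay between -0.59 (*Aldoc*) and 0.39 (*Slc1a2*). Other marker sums were followed too. *Slc1a3* and *Gja1* had an r of 0.85 and 0.73 with the non-telencephalic astrocyte sum. With the cortical sum their r was -0.70 and -0.76. The part of ependymal, neuronal or regional RNA in the members' values was not tested.

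The genes outside all lists whose log2 CPM followed the mean of the 10 standardised members most closely over 8 mice were *Zswim9*, *Prrx1*, *Gsx1*, *Drc7*, *Palld*, *Ccdc180*, *Nfe2l2*, *Ttc29*, *Dlec1* and *Irak1*, with r from 0.966 to 0.945. *Drc7*, a dynein regulatory complex subunit, and *Ttc29* encode parts of motile cilia. The lowest r, from -0.971 to -0.955, were those of *Gm47469*, *Gm37621*, *Mtmr7*, *Myadml2* and *Gm6211*. These are the extremes among 17669 genes over 8 mice and carry no test. Within genotypes 4 of the 10 highest genes were again among the 10 highest.

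A wider list of 33 other mature astrocyte genes gave the background to the members. Of these, 0 were called, 2 had an unadjusted p under 0.05 (both lower in KO) and 1 had groups that did not overlap, beside 1.88% and 0.877% of all genes. The log2 fold changes were 6 above 0 and 27 below, with a median of -0.07, where 50.3% of all genes tested were below 0. These genes were read in the same 8 libraries and are not independent, so the split was not tested. Their summed CPM overlapped between the groups. It was 8258, 8435, 9136 and 11252 in WT replicates 1 to 4, and 8223, 9706, 7812 and 8899 in KO replicates 1 to 4. *Lcat*, an enzyme of cholesterol esterification made by astrocytes, was at 8.80, 11.9, 8.61 and 11.3 CPM in WT replicates 1 to 4 and at 5.14, 6.30, 6.9998 and 5.63 CPM in KO replicates 1 to 4. All 4 KO mice lay below the lowest WT mouse (log2 fold change -0.75, standard error 0.151, unadjusted p 0.000794 and adjusted p 0.9998 by edgeR). *Lcat* is in the table of changed genes the study made from these libraries, so its direction here is not independent evidence.

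*Gfap*, the intermediate filament of stem cells and white matter astrocytes, was at 66.8, 92.1, 61.4 and 103 CPM in WT animals and at 47.98, 62.2, 60.3 and 67.4 CPM in KO animals. The groups overlapped, since WT replicates 1 and 3 lay within the KO range (log2 fold change -0.44, standard error 0.179, unadjusted p 0.035 and adjusted p 0.9998 by edgeR). *Sox9*, a transcription factor of astrocyte nuclei, had a log2 fold change of -0.08. Of 23 reactive astrocyte genes 19 were tested, 0 were called and 0 had an unadjusted p under 0.05, with 9 above 0 and 10 below. The largest were *Amigo2* (0.44), *Serping1* (-0.31) and *Hspb1* (0.26), and *Vim*, another intermediate filament, was at -0.13.

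Regional astrocyte genes leaned in opposite directions without passing the threshold, and the summed CPM of both lists overlapped between the genotypes. The telencephalic sum was 412 to 522 in WT and 365 to 470 in KO mice. The non-telencephalic sum was 65.2 to 219 in WT and 83.7 to 223 in KO mice. The 3 telencephalic genes had log2 fold changes below 0, with *Lhx2*, a transcription factor of the telencephalon, at -0.46 (unadjusted p 0.0308, adjusted p 0.9998 by edgeR), and *Lhx2* is also in the study's table from these libraries. The 4 non-telencephalic genes had log2 fold changes above 0, the largest being *Irx5* (0.61), *Irx2* (0.57) and *Itih3* (0.19), with 0 at an unadjusted p under 0.05. *Irx5* lay at 0.0900 to 0.265 CPM in WT and 0.292 to 0.363 CPM in KO mice without overlap, as did 0.657% of all genes in that direction.

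Markers of the other cells in the tissue gave these values beside the members. Over all genes tested, 50.3% were below 0 and 1.88% had an unadjusted p under 0.05 by edgeR. Markers of the same cell type were read in the same 8 libraries, so a shared direction among them is not independent evidence. All 8 neural stem cell markers had log2 fold changes below 0 (median -0.17), 1 of them, *Thbs4*, at an unadjusted p under 0.05 (-0.55). Their summed CPM overlapped between the genotypes, at 143 to 201 in WT and 138 to 161 in KO mice. In neuroblasts 6 markers had 4 above 0 and 2 below, led by *Dlx1* (0.18), *Sox11* (0.12) and *Dcx* (-0.09). In ependymal cells 7 markers had 5 above 0 and 2 below, led by *Dynlrb2* (0.13), *Foxj1* (0.12) and *Tmem212* (0.12). The choroid plexus list had 2 above 0 and 3 below of 5 tested, led by *Otx2* (0.58), *Clic6* (0.36, in the study's table) and *Ttr* (-0.20). All 7 oligodendrocyte markers were below 0, led by *Mobp* (-0.18), *Mag* (-0.11) and *Cldn11* (-0.10), as were all 3 precursor markers, with *Cspg4* (-0.47) at an unadjusted p under 0.05.

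Microglia markers had 2 above 0 and 5 below of 7, with *Csf1r*, their growth factor receptor, at -0.35 and an unadjusted p under 0.05. Vessel markers had 3 above 0 and 5 below of 8, with *Pdgfrb*, a pericyte receptor, at -0.33 and an unadjusted p under 0.05. Of 5 neuron markers 4 were below 0, led by *Rbfox3* (-0.18), *Snap25* (-0.17) and *Syt1* (-0.10). The 6 cortical markers, 2 of which are in the study's table, had 1 above 0 and 5 below, among them *Neurod2* (-0.88) and *Slc17a7* (-0.81). All 6 striatal markers were below 0, among them *Rgs9* (-0.13) and *Ppp1r1b* (-0.12). In none of these lists was a gene called by edgeR at an adjusted p under 0.1, and no marker was at 0 in every mouse. The differences between the astrocyte members and these lists were not tested.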

How the data were processed

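RNA of 8 mice was sequenced in bulk. Per the labels and the study's methods, the authors demultiplexed with bcl2fastq 2.20, quantified transcripts with Salmon against Gencode M29 and tested genes with DESeq2. They deposited a table of estimated (expected) counts per gene, and per-mouse transcript tables with TPM, estimated counts and effective length. How transcripts were summed to genes is not given in the sources used here. Gene names came from Gencode M21 (GRCm38), which named 94.8% of 54307 gene identifiers and matched 97.4% of 140793 transcripts.

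Gene counts were rounded, filtered with edgeR's filterByExpr (17669 genes), TMM-normalized and tested with the quasi-likelihood test (edgeR 4.0.16, R 4.3.3, no covariates, Benjamini-Hochberg adjustment, calls at an adjusted p under 0.1). Transcripts were tested the same way. CPM values used TMM-scaled library sizes, and log2 CPM a prior count of 2. Alternatives used DESeq2 1.42.0, limma 3.58.1 on log2(TPM + 1), other filters, sex, a replicate block, females alone, length offsets, and each mouse left out. Named genes were *Lrig1*, the 10 members, *Gfap*, *Vim*, *Sox9*, every gene of the other lists with an unadjusted p under 0.05 (otherwise up to 3 with the largest fold change), relatives of the members by range and count, transcripts with a mean share of at least 5%, and the 10 genes most and 5 least like the members. *Gm43079* and *Aldh1l1-202* fall outside this rule. Some genes that the rule selects are not reported here. The members and lists were chosen with earlier results of these data known.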

Additional observations from a re-analysis of the deposited data

Results flagged for a closer look

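In 6 of 94 groups of 4 mice (6.38%), 1 mouse lay far from the other 3 by Dixon's criterion, which chance alone meets in about 1 group in 20. The summed CPM of the cortical markers in WT replicate 2 was 1849, with the nearest WT mouse at 379. The summed CPM of the septal and hypothalamic markers in WT replicate 4 was 95.3, with the nearest WT mouse at 31.7. The same sum in KO replicate 2 was 403, with the nearest KO mouse at 67.3. In WT replicate 4 the share of *Aldoc-202* was 77.5%, against 80.5% in the nearest WT mouse, and the share of *Aldoc-201* was 21.3%, against 19.1%, which are complementary shares of 1 gene. In KO replicate 1 the share of *Slc1a3-201* was 98.98%, against 99.5% in the nearest KO mouse. No CPM value of the 10 astrocyte genes met the criterion.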

How the results depend on the processing

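Over the 20 alternative settings tried for each of the 10 astrocyte genes, no gene had an adjusted p under 0.1, and 180 of the 200 fold changes kept their sign. *Gja1*, *Slc1a2*, *Aldh1l1*, *Aldoc*, *Glul* and *Agt* kept it in every setting. For *Gja1* this includes a value of 4.77e-06 with limma on log2(TPM + 1), too small to give a direction. The 20 that turned were all close to 0 or had wide errors. For *Aqp4* the log2 fold change turned to 0.00344 with sex as a covariate, 0.00556 in females alone, 0.0250 from transcript sums with length offsets, and ran from -0.0457 to 0.0107 leaving out each mouse. For *Gjb6* it turned to 0.35 in females alone and 0.00641 with length offsets, and ran from -0.36 to 0.0780 leaving out each mouse. For *Slc1a3* it turned to -0.0504 with limma on log2(TPM + 1), and ran from -0.11 to 0.0682 leaving out each mouse. For *Agt* it ran from 0.0573 to 1.91 leaving out each mouse. Leaving out 2 mice together, a setting chosen after seeing the data, turned *Gjb6* to 0.0982 without WT replicate 2 and KO replicate 3, and *Aqp4* to 0.00444, *Slc1a3* to -0.0524 and *S100b* to -0.0240 without WT replicate 4 and KO replicate 2. Why these values moved was not tested.

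The count of all genes called, 1 with edgeR, was 12 with DESeq2, 2 with no filter on low counts, 0 with at least 10 counts in every mouse, 2 with sex as a covariate, 3 in females alone and 0 under each exclusion of 2 mice. It ran from 0 (without WT replicate 1 or WT replicate 4) to 3 (without WT replicate 2) leaving out each mouse, and the count of transcripts called, 0 with all mice, from 0 to 3 (3 without WT replicate 3). Of the 10 genes most like the members, 4 were shared when deviations from each genotype's mean were used. WT and KO mice share replicate numbers, but same-numbered mice did not deviate together (r 0.08, -0.22, -0.22 and 0.27 over all genes). With the replicate block 0 genes and 0 members were called, and *Slc1a3* was at -0.00170. With at least 290 counts for each member in each mouse, counting error was small beside the spread between mice, and 4 mice per genotype limit what can be seen.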
